A study of Mus musculus with 6 samples.

Results

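The core transcription factors of the heart were examined as a group of 10 genes: Gata4, Gata6, Nkx2-5, Tbx5, Tbx20, Mef2a, Mef2c, Mef2d, Hand2 and Srf. They were found by gene symbol in a table of 25901 rows, and each symbol matched 1 row. The list was drawn up with earlier results of these data known. The comparison is between hearts of SRAKO mice (SRAKO2365, SRAKO2371 and SRAKO2372) and of wild-type mice (WT2368, WT2378 and WT2379). All 6 animals had received isoproterenol, a beta-adrenergic agonist that drives cardiac hypertrophy, over 4 weeks, so the response to the drug itself has no untreated hearts to be read against here. SRA, the steroid receptor RNA activator, is a coactivator RNA made from the gene Sra1. The title of the study names myocardial hypertrophy as its subject. The labels give no strain, age, sex, batch or litter, and they do not say which part of Sra1 was removed or in which cells. Each library was made from whole heart with oligo(dT) beads. Nothing states that the 6 hearts came from separate litters, so p-values measure the spread between these samples. Ribosomal RNA set WT2368 and SRAKO2371 apart: mt-Rnr1, from the mitochondrial ribosome, was at 1896 FPKM in SRAKO2371 and 4548 in WT2368, against 879 to 1122 in the other 4 hearts. With or without that pair of hearts, 0 of the factors were called as changed.

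These 10 proteins form the regulatory core of the cardiomyocyte. GATA4, NKX2-5 and TBX5 bind neighbouring sites in the promoters of contractile and natriuretic peptide genes and act together, in the embryo to specify heart muscle and in the adult to maintain it. SRF and the MEF2 proteins belong to the MADS-box family. They are held in check or activated by partners that respond to stress, such as class II histone deacetylases for MEF2 and myocardin for SRF. HAND2 is a basic helix-loop-helix factor needed for the right ventricle and is also made by cardiac fibroblasts.

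None of the factors differed in RNA level between SRAKO and WT hearts by more than the hearts varied within a genotype. Of 9 factors tested, 0 passed limma with Benjamini-Hochberg adjustment (adjusted p = 0.999 for each), where 0.0196% of all 10201 tested rows did. At an unadjusted p under 0.05 there were 0 of the 9, against 3.46% of all rows, and the groups were apart in 0 of the 9, against 8.05% of all rows. Ratios of the mean FPKM (coverage by reads, per length of transcript and per size of library) in SRAKO to that in WT lay between 0.867 for Srf and 1.05 for Tbx5. The 95% intervals of the 9 log2 differences reached down to -0.50 for Srf and up to 0.47 for Tbx5. In FPKM + 1 these bounds are 0.705 and 1.39 times WT. They are the outermost bounds, and each factor has its own interval. An interval is not a limit of detection, which was not worked out for 3 hearts a group. The log2 differences given here are SRAKO minus WT on log2(FPKM + 1), a scale that understates changes of weakly expressed genes.

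Sequence upstream of Srf and Hand2 is shown for the letters it shares with binding sites of the factors themselves. The 250 bases before the transcription start, taken from RefSeq on GRCm38.p6, were found for 7 of the 10 genes, in 9 windows because Mef2c has several starts. Gata4, Gata6 and Tbx5 had none in the table. Srf is shown because it carries the binding site of its own protein, the CArG box, which occurred at 2 places in its window and in 1.47% of 32851 windows of all genes. The Srf window lies at chr17:46556163-46556412 on the minus strand. Hand2 is shown as an example of a window with letters bound by the families of these factors, and windows of Mef2c held such letters too. In Hand2 they were GATAA for GATA factors at 2 places (22.6% of all windows) and AAGTG for NKX2-5 (40.7%). The window also held CATCTG, an E-box form for basic helix-loop-helix proteins, the class of HAND2 itself (14.4%). The Hand2 window lies at chr8:57320733-57320982 on the plus strand. Capitals mark the CArG boxes in Srf and the matches named above in Hand2, each read on either strand.
Srf: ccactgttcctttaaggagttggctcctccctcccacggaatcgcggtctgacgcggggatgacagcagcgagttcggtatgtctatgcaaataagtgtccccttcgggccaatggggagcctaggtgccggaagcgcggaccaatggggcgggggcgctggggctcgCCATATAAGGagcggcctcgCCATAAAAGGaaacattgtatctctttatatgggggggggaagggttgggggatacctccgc
Hand2: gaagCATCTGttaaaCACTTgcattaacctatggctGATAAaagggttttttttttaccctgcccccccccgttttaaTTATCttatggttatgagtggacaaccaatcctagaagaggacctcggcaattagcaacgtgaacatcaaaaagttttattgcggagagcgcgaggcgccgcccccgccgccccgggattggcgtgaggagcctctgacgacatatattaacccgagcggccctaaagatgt

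In the Srf window the CArG boxes run from 82 to 73 and from 62 to 53 bases before the start. AAGTG was found in 5 of the 9 windows of the members, GATAA in 2, CATCTG in 2, the T-box letters AGGTGT in 1 (11.8% of all windows) and TATAAA in 3 (12.4%). The MEF2 site was in 0 of the 9 and in 0.508% of all windows. None of the words with fixed letters contains another, but some forms of the CArG box and the MEF2 site contain TATAAA. Each search covered both strands. A match of letters is not a bound site.

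Levels per kilobase placed the factors in a fixed broad order. Srf averaged 26.4 FPKM over the 6 hearts and Hand2 24.3, which put them at the 90.8th and 90.0th percentile of the tested rows. Nkx2-5 followed at 19.2, Gata4 at 18.6 and Tbx5 at 17.9. Gata6 averaged 12.0, Mef2d 10.4, Mef2a 4.51, Tbx20 3.33 and Mef2c 0.275 FPKM. Neighbours in this order often traded places: Srf was above Hand2 in 4 of 6 hearts, Nkx2-5 above Gata4 in 3 and Gata4 above Tbx5 in 4. Hand2 was above Nkx2-5, Tbx5 above Gata6, Gata6 above Mef2d and Mef2a above Tbx20 in 6 of 6 hearts, although their ranges over hearts overlapped. Only between Mef2d and Mef2a, where Mef2d was 2.03 to 3.0 times as high, and between Tbx20 and Mef2c did the ranges not touch. How StringTie's transcripts were combined into 1 value per gene is not given in the sources used here, and that step bears on levels of genes with many transcripts.

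**Figure D1:**
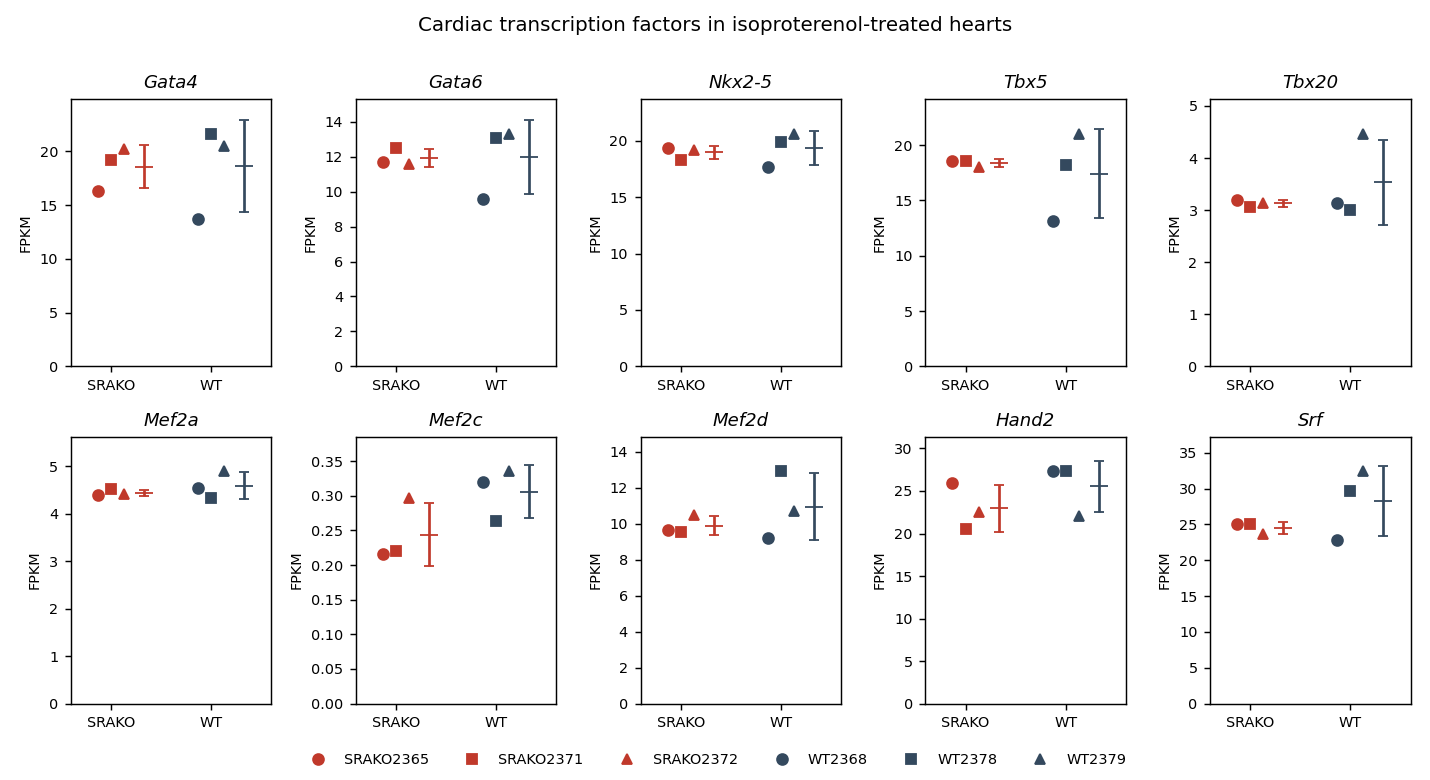
FPKM (vertical axes, each starting at 0) of the 10 factors in 3 SRAKO hearts (red, left) and 3 WT hearts (dark blue, right), with each heart as a point and the mean ± SD beside it. SRAKO and WT points overlap in all 10 panels, and WT2368 is the lowest heart for Gata4, Gata6, Nkx2-5, Tbx5, Mef2d and Srf.

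Gata4 and Gata6 encode zinc finger proteins that bind the same motif, and in mice GATA4 is needed for the heart's growth response to pressure load. Gata4 (chromosome 14, 63198922 to 63271692, minus strand, GRCm38) had 16.3, 19.2 and 20.2 FPKM in SRAKO2365, SRAKO2371 and SRAKO2372, against 13.7, 21.6 and 20.5 in WT2368, WT2378 and WT2379. The SRAKO hearts lay inside the WT range. Means were 18.6 ± 2.02 in SRAKO and 18.6 ± 4.29 in WT (SD, n = 3 each), and the log2 difference was 0.02 ± 0.18 (SE; adjusted p = 0.999, limma). Gata6 (chromosome 18, 11052064 to 11085635, plus strand) had 11.7, 12.5 and 11.6 FPKM in the SRAKO hearts, against 9.56, 13.1 and 13.3 in WT2368, WT2378 and WT2379. Again WT2368 was the lowest of the 6, and the other WT hearts were above each SRAKO heart. The log2 difference of Gata6 was 0.01, with a 95% interval from -0.31 to 0.32. Without WT2368 both genes were lower in SRAKO, with log2 differences of -0.18 for Gata4 and -0.14 for Gata6, and with hearts weighted by their spread the differences were -0.12 and -0.11. The sign of Gata6 also turned under median scaling (-0.0038), and those of both GATA genes turned under quantile normalization, at -0.0016 for Gata4 and -0.01 for Gata6.

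Nkx2-5, a homeodomain factor that marks the cardiac lineage and maintains the conduction system, was the steadiest of the strongly expressed members. The gene (chromosome 17, 26838664 to 26845009, minus strand) had 19.4, 18.3 and 19.2 FPKM in the SRAKO hearts, against 17.7, 19.9 and 20.6 in WT2368, WT2378 and WT2379. The highest heart was 1.16 times the lowest, and the groups overlapped. The log2 difference was -0.03 ± 0.10 (SE; p = 0.7 by two-sided exact permutation, which with 3 hearts against 3 cannot go below 0.1).

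Tbx5 and Tbx20 encode T-box proteins. TBX5 is the factor mutated in Holt-Oram syndrome and is strong in atria and conduction tissue, and TBX20 acts in adult cardiomyocytes as activator and repressor. Tbx5 (chromosome 5, 119832668 to 119885219, plus strand) had 18.6, 18.6 and 18.0 FPKM in the SRAKO hearts, against 13.1, 18.2 and 21.0 in WT2368, WT2378 and WT2379. The SRAKO values were nearly identical, with a coefficient of variation of 1.97%, and the WT values, with 23.0%, spread to either side of them. The log2 difference was 0.10 (95% interval -0.28 to 0.47), and -0.09 without WT2368. Tbx20 (chromosome 9, 24718138 to 24774303, minus strand) had 3.19, 3.05 and 3.14 FPKM in the SRAKO hearts, against 3.13, 3.0 and 4.46 in WT2368, WT2378 and WT2379. Of the 6 values, 5 lay between 3.0 and 3.19, and WT2379 alone stood above. The log2 difference of -0.12 therefore rested on that heart and was 0.02 without it. WT2379 also had the highest summed level of 8 atrial cardiomyocyte markers, 8480 FPKM, against 3004 to 3542 in SRAKO hearts and 2515 and 3778 in the other WT hearts. All 8 atrial markers were detected, each lower in SRAKO on average and 0 of them called, and their part in the Tbx20 and Tbx5 values was not tested. In whole-heart RNA, fewer cells of a type and less RNA per cell cannot be told apart.

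Hand2 (chromosome 8, 57320983 to 57324633, plus strand) had 25.9, 20.5 and 22.5 FPKM in SRAKO2365, SRAKO2371 and SRAKO2372, against 27.3, 27.3 and 22.1 in WT2368, WT2378 and WT2379. Its pattern differed from that of the other strong members: WT2368 was high rather than low, and SRAKO2371 was the lowest heart. Means were 23.0 ± 2.73 in SRAKO and 25.6 ± 2.99 in WT (SD, n = 3 each), with a log2 difference of -0.15 ± 0.13 (SE; adjusted p = 0.999, limma). Summed markers of fibroblasts, another source of Hand2 RNA, were at 519 to 521 FPKM in SRAKO hearts and at 364 to 518 in WT hearts, lowest in WT2368. These 8 markers split into 4 with a higher and 4 with a lower mean log2 level in SRAKO (median log2 difference -0.0027), and their part in the Hand2 values was not tested.

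The MEF2 proteins bind A and T rich sites and link calcium signals to gene activity, and in mice MEF2D mediates remodelling under stress. Mef2d (chromosome 3, 88142372 to 88172086, plus strand) had 9.62, 9.54 and 10.5 FPKM in the SRAKO hearts, against 9.22, 12.9 and 10.7 in WT2368, WT2378 and WT2379. WT2378 was the high heart here, and the log2 difference was -0.13 (95% interval -0.42 to 0.17). Mef2a (chromosome 7, 67231163 to 67372858, minus strand) had 4.40, 4.51 and 4.41 FPKM in the SRAKO hearts, against 4.55, 4.32 and 4.89 in WT2368, WT2378 and WT2379. It varied least of all members, 1.13-fold from lowest to highest heart. Its difference of -0.04 also had the narrowest interval of the 9 on log2(FPKM + 1), from -0.24 to 0.16. That is 0.849 to 1.12 times WT in FPKM + 1, a scale that understates changes of weakly expressed genes.

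Mef2c (chromosome 13, 83504034 to 83667080, plus strand) was the only member below the filter on weak rows, which asked for 3 hearts with an FPKM of 1 or more, and was not tested with limma. It had 0.216, 0.220 and 0.296 FPKM in the SRAKO hearts, against 0.32, 0.263 and 0.335 in WT2368, WT2378 and WT2379. The highest SRAKO heart exceeded the lowest WT heart, and the means were 0.244 ± 0.0452 and 0.306 ± 0.0383 (SD, n = 3 each). A two-sided exact permutation gave p = 0.2. The row lists 17 of the 31 transcripts that GENCODE M21 annotates for Mef2c, and the other 14 are listed in no other row. Whether reads of those 14 entered the value is not known, so its level cannot be read as the total of the gene. The rows of Gata4, Tbx5, Mef2d and Hand2 list every transcript annotated for their gene. That of Mef2a lists 11 of 12, Tbx20 3 of 5, Nkx2-5 1 of 2, Gata6 1 of 6 and Srf 1 of 4, which limits their levels and their places in the order of levels in the same way. The transcripts these rows leave out are likewise in no other row.

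Srf showed the lowest ratio of the 9 tested factors. SRF binds the CArG box and drives cytoskeletal and immediate early genes. The gene (chromosome 17, 46548329 to 46556175, minus strand) had 25.0, 25.0 and 23.6 FPKM in SRAKO2365, SRAKO2371 and SRAKO2372, against 22.9, 29.6 and 32.4 in WT2368, WT2378 and WT2379. A pair of WT hearts lay above every SRAKO heart and WT2368 lay below all of them. Means were 24.5 ± 0.831 in SRAKO and 28.3 ± 4.89 in WT (SD, n = 3 each). The log2 difference was -0.18 ± 0.14 (SE), its 95% interval ran from -0.50 to 0.14, and limma gave an unadjusted p of 0.220 and an adjusted p of 0.999. Without WT2368 it was -0.32, with an unadjusted p of 0.00572 but an adjusted p of 0.707 in limma, in a fit where 6.70% of all rows had an unadjusted p under 0.05.

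**Figure D2:**
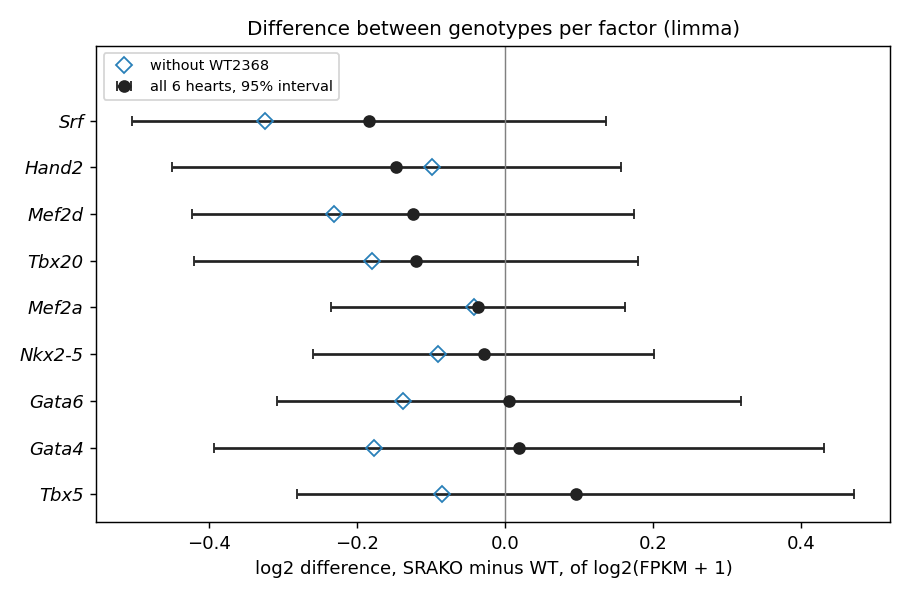
Log2 difference between SRAKO and WT on log2(FPKM + 1) (horizontal axis) for the 9 tested factors, with 95% limma intervals from all 6 hearts (black) and the value without WT2368 (open diamonds). Each black interval spans 0, and without WT2368 all 9 values are below 0.

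WT2368 stood apart in these values. Among the 9 tested factors it was the lowest heart in 6, and it was the lowest in 44.9% of all tested rows. The median of the factors in WT2368 lay 0.15 below their 6-heart means on the log2 scale, and the median of all tested rows lay 0.10 below. WT2379 and WT2378 were 0.15 and 0.13 above for the factors, and 0.05 and 0.04 above for all rows. The SRAKO hearts stayed between -0.06 and -0.03 for the factors. The part of ribosomal RNA, which was also highest in WT2368, was not tested. Without both WT2368 and SRAKO2371 the log2 differences were -0.34 for Srf, -0.21 for Mef2d, -0.20 for Gata4, -0.17 for Gata6 and Tbx20, -0.09 for Tbx5, -0.07 for Nkx2-5, -0.05 for Mef2a and -0.02 for Hand2.

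With all 6 hearts, 6 of the 9 factors were lower in SRAKO and 3 higher, with a median log2 difference of -0.04, beside 46.5% of all rows lower and a median of 0.01 over all rows. Without WT2368 all 9 were lower, with a median of -0.14, where 61.1% of all rows were lower and their median was -0.04. Without WT2379, 6 of the 9 were higher and 3 lower, with a median of 0.01, where 6214 of all 10201 rows were higher and their median was 0.04. In the comparison without WT2368, of 3 SRAKO with 2 WT hearts, Gata4, Gata6, Nkx2-5, Mef2d and Srf did not overlap between genotypes, 5 of 9, against 18.4% of all rows that were lower without overlap. WT2368 was the lowest of the 6 hearts for each of these 5, so leaving it out by itself favours such a separation. No factor was called without WT2368 (0 of 9, smallest adjusted p = 0.707 in limma, with 0% of all rows called). The largest differences were -0.32 for Srf, -0.23 for Mef2d and -0.18 for Tbx20 and Gata4.

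**Figure D3:**
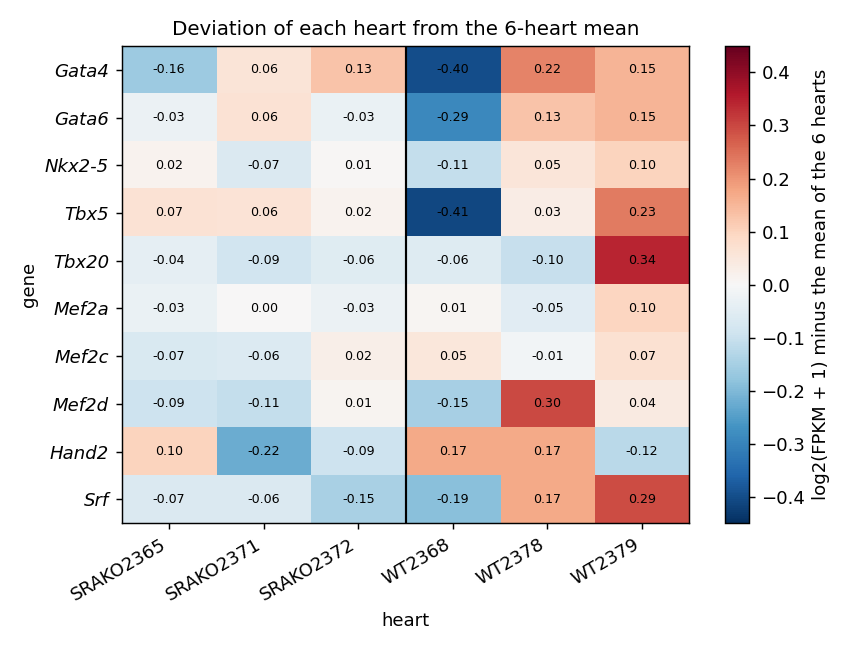
Deviation of each heart (columns, SRAKO left of the line and WT right) from the 6-heart mean of log2(FPKM + 1) for the 10 factors (rows), blue for lower and red for higher. WT2368 is lowest for 6 factors and WT2379 highest for 7, and the SRAKO columns stay between -0.22 and 0.13.

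The SRAKO hearts were more alike than the WT hearts. For 9 of 9 tested factors the SD on the log2 scale was smaller in SRAKO, where this held for 67.8% of all tested rows. The median SD of the factors was 0.05 in SRAKO and 0.25 in WT, beside 0.10 in SRAKO and 0.15 in WT over all tested rows. With WT2368 left out, the SRAKO SD was the smaller one in 6 of the 9 and in 45.2% of all tested rows. That sets more SRAKO than WT hearts against each other, so these shares cannot be read directly beside those with all hearts. No test was made of this difference in spread.

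Ratios within a heart do not depend on how the heart was scaled, and 4 of them, chosen after the values were seen, were compared. The ratio of Gata4 to Gata6 was 1.40, 1.54 and 1.74 in SRAKO2365, SRAKO2371 and SRAKO2372, against 1.43, 1.65 and 1.54 in WT2368, WT2378 and WT2379 (exact two-sided permutation test p = 1). The mean log2 ratio of the GATA pair differed by 0.01 between genotypes. Tbx5 to Tbx20 stood at 5.84, 6.08 and 5.72 in SRAKO, against 4.19, 6.05 and 4.72 in WT (exact permutation p = 0.3, adjusted over the 4 ratios 0.6). Mef2d to Mef2a averaged 2.22 ± 0.133 in SRAKO and 2.40 ± 0.522 in WT (SD, n = 3 each, exact permutation p = 0.9). Srf to Myocd, the gene of its partner myocardin, averaged 6.01 ± 0.470 in SRAKO and 5.52 ± 0.247 in WT (SD, n = 3 each, exact permutation p = 0.3, adjusted over the 4 ratios 0.6).

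No partner that decides whether these factors activate or repress was called by limma after adjustment. Of 41 cofactors and repressors listed, 35 were tested, 11 of them higher and 24 lower in SRAKO, with a median log2 difference of -0.04. Of the 35, 0 had an unadjusted p under 0.05, beside 3.46% of all rows. The median was -0.10 without WT2368, with 9 higher and 26 lower, and -0.0081 without WT2379, with 16 higher and 19 lower. Among all 10201 tested rows, 4744 were lower with all 6 hearts, 6233 without WT2368 and 3987 without WT2379. Myocd, the heart and smooth muscle coactivator of SRF, came nearest. It had 4.39, 3.82 and 4.07 FPKM in SRAKO2365, SRAKO2371 and SRAKO2372, against 4.26, 5.49 and 5.57 in WT2368, WT2378 and WT2379. As with Srf, WT2378 and WT2379 were above all SRAKO hearts and WT2368 was not, and the log2 difference was -0.26 ± 0.11 (SE; limma unadjusted p = 0.0562, adjusted p = 0.999). The myocardin-related coactivators Mrtfa and Mrtfb, listed in the table as Mkl1 and Mkl2, averaged 1.73 ± 0.468 and 4.93 ± 0.615 FPKM in SRAKO, against 1.83 ± 0.317 and 5.23 ± 0.791 in WT (SD, n = 3 each).

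Zfpm2, which encodes the GATA4 partner FOG2, averaged 1.91 ± 0.243 FPKM in SRAKO and 2.12 ± 0.272 in WT, a log2 difference of -0.10. Its relative Zfpm1 averaged 6.02 ± 0.114 in SRAKO and 5.06 ± 1.14 in WT, and the hearts overlapped (log2 difference 0.23). Mapk14, the p38 kinase that phosphorylates MEF2, ranged from 3.93 to 11.2 FPKM in SRAKO and from 3.62 to 6.74 in WT. Hopx, a homeodomain protein without DNA binding that restrains SRF, was at 52.3, 45.5 and 45.1 in SRAKO and at 50.6, 50.4 and 61.4 in WT. The list held the class II deacetylases Hdac4, Hdac5, Hdac7 and Hdac9, and the first 3 of these were tested, with log2 differences of -0.05, 0.09 and -0.05.

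No listed target gene was called by limma after adjustment, and the sign of each target list's median changed with the WT hearts counted. Over all tested rows the median moved less, to -0.04 without WT2368 and 0.04 without WT2379, beside 0.01 with all 6 hearts. Of all 10201 tested rows, 4744 were lower in SRAKO with all 6 hearts, 6233 without WT2368 and 3987 without WT2379. The genes were listed from general knowledge of the factors, with earlier results of these data known. Of 36 targets of GATA4, NKX2-5 and TBX5, 34 were tested, 14 higher and 20 lower in SRAKO, with a median log2 difference of -0.09. Without WT2368 the median was -0.14, with 6 higher and 28 lower, and without WT2379 it was 0.03, with 20 higher and 14 lower. Ccnd2, the cyclin D2 gene, was the 1 target of these 34 with an unadjusted p under 0.05 (0.0475 in limma, adjusted p = 0.999). Among all rows 3.46% had such a p in either direction. Ccnd2 had 6.86, 5.25 and 6.63 FPKM in SRAKO, against 7.76, 7.06 and 8.84 in WT2368, WT2378 and WT2379, without overlap. The groups were apart in 2 of the 34, beside 8.05% of all rows. Csrp3, the muscle LIM protein of the Z-disc, averaged 170 ± 28.2 in SRAKO and 212 ± 26.2 in WT, and the ryanodine receptor gene Ryr2 32.2 ± 2.68 in SRAKO and 36.5 ± 2.05 in WT. Bmp10, an atrial growth factor, ranged from 8.15 to 133 FPKM in SRAKO and from 94.0 to 254 in WT. It was highest in WT2379, like the summed atrial markers, to which it belongs. Its log2 difference of -1.51 was -0.33 without SRAKO2371, the heart at 8.15 FPKM, and -1.05 without WT2379.

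Of 30 MEF2 targets 28 were tested, 10 higher and 18 lower, with a median of -0.05. The median was -0.14 without WT2368, where 23 were lower, and 0.02 without WT2379, where 13 were. Xirp2, which encodes myomaxin, a stress-responsive protein of the intercalated disc, had an unadjusted p of 0.0472 in limma (adjusted p = 0.999). It was the 1 gene of the 28 with such a p under 0.05, beside 3.46% of all rows. It had 17.1, 15.6 and 15.0 FPKM in SRAKO, against 22.0, 16.3 and 25.7 in WT2368, WT2378 and WT2379, and overlapped through WT2378. Casq2 and Lmod2, for the calcium store protein calsequestrin and a thin filament protein, averaged 224 ± 7.30 and 195 ± 16.4 in SRAKO, against 257 ± 28.8 and 223 ± 32.4 in WT. Cox6a2, the muscle subunit of cytochrome oxidase, averaged 1831 ± 116 in SRAKO and 1605 ± 202 in WT.

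Of 31 SRF targets 28 were tested, 16 higher and 12 lower in SRAKO, with a median of 0.02. That median turned to -0.07 without WT2368 and was 0.12 without WT2379. Of the 28, 2 had an unadjusted p under 0.05, Lmod1 and Myh11, both higher in SRAKO, beside 3.46% of all rows in either direction. The groups were apart in 2 of the 28, beside 8.05% of all rows. Lmod1, which encodes a smooth muscle leiomodin, had 3.38, 4.05 and 3.80 FPKM in SRAKO, against 2.33, 3.17 and 2.17 in WT2368, WT2378 and WT2379, without overlap (log2 difference 0.42, limma unadjusted p = 0.010, adjusted p = 0.999). Myh11, the smooth muscle myosin heavy chain, averaged 16.2 ± 0.804 in SRAKO and 12.0 ± 2.14 in WT (log2 difference 0.42). Markers of smooth muscle and pericytes, which include Myh11, were higher in 6 of 8 and lower in 2, with summed levels of 360 to 367 FPKM in SRAKO and 296 to 374 in WT. Their part in these values was not tested. The immediate early genes Fos and Ier2 averaged 4.29 ± 2.14 and 12.2 ± 2.41 in SRAKO, against 2.06 ± 1.10 and 9.16 ± 2.34 in WT, and overlapped between genotypes.

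**Figure D4:**
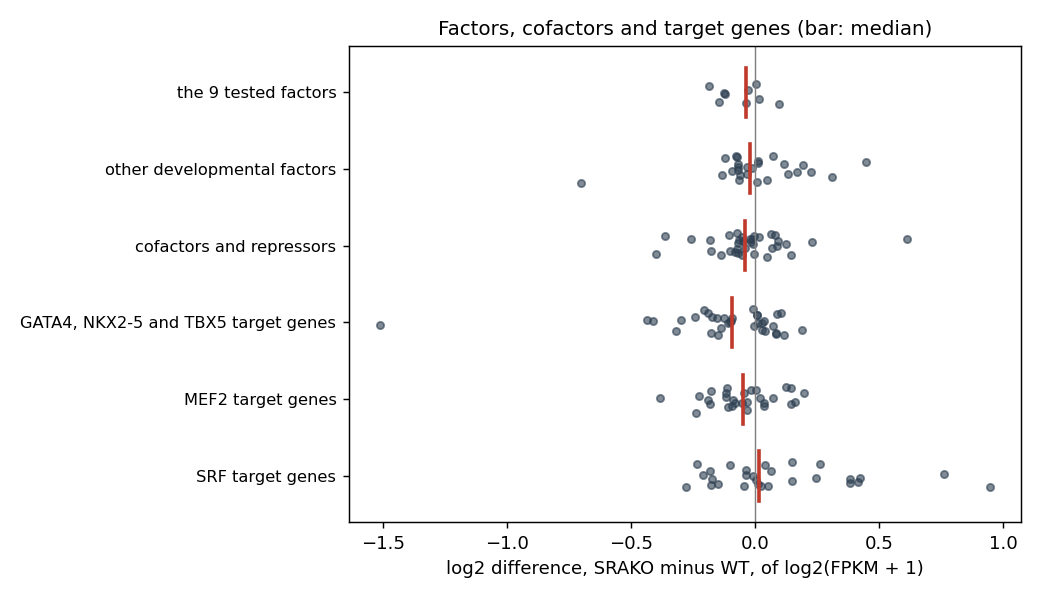
Log2 difference between SRAKO and WT on log2(FPKM + 1) (horizontal axis) for each tested gene of the factors, their cofactors and their listed targets (rows), with the median as a red bar. The medians run from -0.09 to 0.02, and the points farthest out are Bmp10 at -1.51, which is -0.33 without SRAKO2371, and Egr1 at 0.95, which is 0.43 without WT2368.

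Other developmental factors of the heart and its mesenchyme were listed as 43 genes, of which 26 were tested, 12 higher and 14 lower in SRAKO, with a median of -0.02, which was 0.02 without WT2378. Gata2, a GATA factor of endothelial and blood cells, had 4.88, 5.19 and 5.75 FPKM in SRAKO, against 3.36, 4.80 and 4.11 in WT2368, WT2378 and WT2379. These groups did not overlap, and limma gave an unadjusted p of 0.0390 and an adjusted p of 0.999. Of the 26, 1 had an unadjusted p under 0.05, beside 3.46% of all rows. The groups were apart in 2 of the 26, beside 8.05% of all rows. Tbx3, a T-box repressor of the conduction system, averaged 2.13 ± 0.284 in SRAKO and 1.68 ± 0.256 in WT. Irx3, an Iroquois factor of the fast conduction system, averaged 6.35 ± 0.835 in SRAKO and 4.59 ± 1.86 in WT, and Tead3 averaged 4.39 ± 0.269 in SRAKO and 3.93 ± 0.199 in WT. Among 7 endothelial markers 5 had a lower and 2 a higher mean log2 level in SRAKO (median difference -0.01), although their summed levels were 268 to 282 FPKM in SRAKO and 251 to 261 in WT. Their part in Gata2 was not tested.

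Over the 6 hearts, the row most like each tested factor was Pxmp4 for Gata4, Ergic1 for Gata6, Ndst1 for Nkx2-5, Wdr6 for Tbx5, Ptpn21 for Tbx20, Rab2a for Mef2a, H2-DMb1 for Mef2d, Rcor2 for Hand2 and Tada1 for Srf. Pearson's r of log2(FPKM + 1) ran from 0.9804 to 0.9988 for these pairs. Each was the best of 8918 rows over only 6 libraries, which share depth and scaling, so high values are bound to occur. For Gata6, 250 rows exceeded 0.95. None of the 9 most similar rows belonged to the factors themselves.

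Checks of the samples bear on all of these values. Sra1 was at 1.96, 1.78 and 2.05 FPKM in the SRAKO hearts, against 4.40, 4.23 and 6.31 in WT2368, WT2378 and WT2379 (limma, adjusted p = 0.258). Markers of ventricular cardiomyocytes were present throughout, with 8 of 8 detected and sums of 11512 to 11602 FPKM in SRAKO and 10558 to 12983 in WT. Neutrophil and adipocyte markers differed among SRAKO hearts, with sums of 3.19 to 53.0 and 30.9 to 166 FPKM, against 1.2 to 10.7 and 31.6 to 44.8 in WT. All tested ones, 3 and 5, were higher in SRAKO on average. Macrophage markers were higher in 7 of 7, with sums of 119 to 134 in SRAKO and 98.4 to 117 in WT. Erythroid markers were lower in 5 of 5, with overlapping sums of 1070 to 2425 in SRAKO and 1397 to 2096 in WT. None of these markers was called, and their part in the factor values was not tested. Read depth was not given with the values.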

How the data were processed

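Poly(A)-selected RNA of 6 hearts was sequenced, and the authors deposited a single table of FPKM per gene and heart, per the file headers. The submitters' processing notes name cutadapt 1.9, HISAT2 2.0.4, StringTie 1.3.4d and edgeR, and the build hg38, although the identifiers are of mouse genes, so the build used for alignment is not settled. Depth per heart is unknown and limits the precision of low values. Hearts were grouped by sample title. The 10201 rows that reached an FPKM of 1 in 3 or more of the 6 hearts were tested on log2(FPKM + 1), with a pseudocount of 1, by genotype in limma 3.58.1 (R 4.3.3), with a variance trend (prior of 3.69 degrees of freedom), two-sided, and Benjamini-Hochberg adjustment over all tested rows at a threshold of 0.05. The code was tested on simulated data. Positions are from GENCODE M21 on GRCm38, by gene symbol.

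The factors, gene lists and tests were chosen with earlier results of these data known, so no list received a test or an adjustment of its own. Genes named were the 10 factors, Zfpm2, Myocd, Mrtfa, Mrtfb and Sra1, the 4 genes with the smallest p in each list, and the row most like each factor. Hdac4, Hdac5, Hdac7, Hdac9, Egr1, the ribosomal RNA rows and the genes under other observations were named outside that rule, after their values were seen. Alternatives covered pseudocount, filter, variance model, weights, scaling, row choice and each heart left out.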

Additional observations from a re-analysis of the deposited data

How the results depend on the processing

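The number of factors called was 0 under each of the 16 alternatives, and the median over them ran from -0.17 without WT2368 and SRAKO2371 to 0.013 without WT2379. Rows called over the whole table numbered 2. They were 0 with no filter, with a batch term for WT2368 and SRAKO2371 or without that pair, 1 with a pseudocount of 0.1 or a filter at a mean FPKM of 5, and 0 to 7 with 1 heart left out. Of 517 values of 33 named genes under these alternatives, 496 kept direction and side of the threshold and 21 changed sign, none of them called. Gata4 was at -0.12 with array weights, -0.0016 with quantile normalization, -0.20 without the pair, and between -0.18 and 0.13 with 1 heart left out. Gata6 was at -0.11 with array weights, -0.0038 with median scaling, -0.014 with quantile normalization, -0.17 without the pair, and between -0.14 and 0.083 with 1 heart left out. Tbx5 was at -0.052 with array weights, -0.093 without the pair, and between -0.086 and 0.24 with 1 heart left out. Leaving out hearts also turned Nkx2-5 (-0.091 to 0.013), Tbx20 (-0.20 to 0.0205), Mef2a (-0.072 to 0.0019), Mrtfa (-0.17 to 0.077) and Mrtfb (-0.18 to 0.018). Srf, Mef2d and Hand2 stayed lower in SRAKO under all 16, from -0.34 to -0.08, -0.23 to -0.0074 and -0.24 to -0.02. With 1 heart left out the list medians ran from -0.14 to 0.034 for GATA4, NKX2-5 and TBX5 targets, -0.14 to 0.017 for MEF2 targets, -0.071 to 0.12 for SRF targets, -0.10 to -0.0022 for cofactors and -0.0203 to 0.018 for other developmental factors; the lowest was without WT2368 for the first 4 of these. Beyond what these settings construct, the cause was not tested. No paired analysis was possible because the titles give each heart a different number.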

Other observations

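Noncoding neighbours of the factors were followed as well, since reads of overlapping genes on opposite strands cannot be told apart without strand information. The noncoding gene 1010001N08Rik, which overlaps the start of Gata6 on the other strand, was at 1.94, 2.22 and 2.11 FPKM in the SRAKO hearts, against 2.0, 2.16 and 2.18 in WT2368, WT2378 and WT2379. Gm43050, which lies 748 bases from Tbx5 on the other strand, was at 2.77, 2.46 and 2.93 FPKM in the SRAKO hearts, against 2.41, 3.49 and 2.98 in WT2368, WT2378 and WT2379. Lysmd4, a protein-coding gene that overlaps Mef2a on the other strand, was at 2.77, 2.5 and 2.45 FPKM in SRAKO, against 2.5, 3.08 and 2.72 in WT. Each of these neighbours overlapped between genotypes.

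The stronger of 2 rows of Jarid2, and the row of Tead1, both named after their values were seen, varied far more between hearts than the factors did. Jarid2, a listed cofactor and a repressor that restrains cardiomyocyte growth, is listed in 2 rows. The stronger row was at 4.50, 40.8 and 7.56 FPKM in SRAKO2365, SRAKO2371 and SRAKO2372, against 89.2, 4.78 and 7.63 in WT2368, WT2378 and WT2379. Its high hearts were SRAKO2371 and WT2368, the ones with the most mt-Rnr1. The weaker Jarid2 row, which is not in the counts of the list, had a log2 difference of -0.25 (limma unadjusted p = 0.0129, adjusted p = 0.999). Tead1, from the list of other developmental factors and a partner of YAP, was at 0.115, 1.6 and 0.145 FPKM in the SRAKO hearts, against 1.07, 4.54 and 0.243 in WT2368, WT2378 and WT2379.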
